A study of Mus musculus with 11 samples.

Results

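The genes described here encode matrix metalloproteinases and the proteins that restrain or induce them, in cultured cardiomyocytes. They are Mmp2, Mmp9, Mmp14, Mmp15, Timp1, Timp2, Timp3, Timp4, Bsg and Reck, 10 genes in all, and their members on the array are all probes whose annotated symbol is one of these names. That gave 12 probes for 9 of the genes, of 25697 probes on the array, 23978 of which carried 1 gene symbol. No probe was named for Mmp15 in the annotation used, so Mmp15 was not analysed here. The set was chosen partly because Mmp14 leaned higher in TGF-β2-treated than in PDGF-BB-treated cells on these arrays, so values of that contrast are given as a description and were not tested.

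RNA of HL-1 cells, an immortal cardiomyocyte line of mouse atrial origin, was hybridised to 11 arrays of the MouseRef-8 Expression Beadchip. The TGF-β2 group (TGF-beta2 in the labels) held 4 arrays of cells given 10 ng/mL, the PDGF-BB group (PDGF BB in the labels) held 3 arrays of cells given 100 ng/mL, and the control group held 4 arrays of cells with no growth factor. All flasks were coated with fibronectin and gelatin and were kept in medium with norepinephrine and ultracentrifuged serum. The growth factors were then given in medium free of serum and antibiotics, and the methods do not name the medium of the control flasks. In all groups the medium was collected after 23 h and the cells were harvested with trypsin. Each array came from 1 culture flask of this 1 line, so the spread between arrays is that of flasks. A further PDGF-BB cell sample, which the study describes as an outlier on its array, was not analysed here. Chip 1 of the 2 chips held TGF-β2 1 and 2, PDGF-BB 1 and control 1 and 2, and chip 2 held the rest.

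Matrix metalloproteinases are zinc enzymes that cut collagens and other proteins of the extracellular matrix, and most are made as inactive proenzymes. MMP14 is anchored in the plasma membrane, while MMP2 and MMP9, the gelatinases, are secreted. The TIMP proteins block the active enzymes, and TIMP2 has a second role, since it bridges MMP14 and proMMP2 so that a neighbouring MMP14 can activate it. In the heart this system takes part in matrix turnover and in remodelling after injury or overload.

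Probes were read from a median of 34 to 38 beads per array, and 11401 to 12455 probes per array had a detection p-value under 0.05, the probability that a probe without target would give such a signal. Of 8 cardiomyocyte markers with a probe, 7 passed the cell filter described next on all 11 arrays (Myl7, Nppa, Actc1, Myh6, Myl4, Tnni3 and Gja1), while Ryr2, which encodes the calcium release channel, passed on none. Of 8 fibroblast markers, 0 passed on all arrays and 7 on none, among them Col1a1, Col1a2, Dcn and Pdgfra. Col3a1, the remaining one, passed only on PDGF-BB 1 and control 1. The summed signal of the fibroblast list ranged from 3.94 to 50.9 in TGF-β2-treated cells, 37.9 to 157 in PDGF-BB-treated cells and 19.4 to 52.4 in control cells. Of the smooth muscle markers 2 of 4 passed on all arrays (Tagln and Des, which cardiomyocytes can also express), and of the endothelial and the leukocyte markers 0 of 5 and 0 of 4. The summed signal of the endothelial list was 78.6 to 115 with TGF-β2, 86.8 to 121 with PDGF-BB and 60.05 to 79.7 in control cells, so that PDGF-BB did not overlap control. Pecam1 and Kdr of that list each passed on 6 arrays, spread over all groups, with signals of up to 40.75 and 72.9. Cdh5, Tek and Tie1 passed on 0 arrays. The leukocyte list summed to 16.7 to 79.8 with TGF-β2, 29.9 to 80.8 with PDGF-BB and 16.8 to 89.8 in control cells. Of its genes, Ptprc passed on control 1 and 2 only, Cd14 on PDGF-BB 1 only, and Itgam and Lyz2 on 0 arrays. The part of these lists in the results below was not tested. In RNA from whole flasks, fewer expressing cells and less RNA per cell cannot be told apart.

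Mmp14, Timp1, Timp2 and Reck were expressed in all 3 groups, and the other members were at or near the detection limit. The cell filter required a detection p-value under 0.05 and a normalized signal intensity above 30. On all 11 arrays it passed 5 of the 12 probes (41.7%), those of Mmp14, Timp2 and Reck and both of Timp1, against 38.7% of all probes on the array. Mmp2, Timp4 and Bsg were detected on 0 arrays at any probe. The Mmp9 probe was detected on 2 arrays, TGF-β2 3 (detection value 0.0301) and control 1 (detection value 0.0439). Timp3 was detected on 6 arrays at 1 probe and on 0 at the other.

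**Figure D1:**
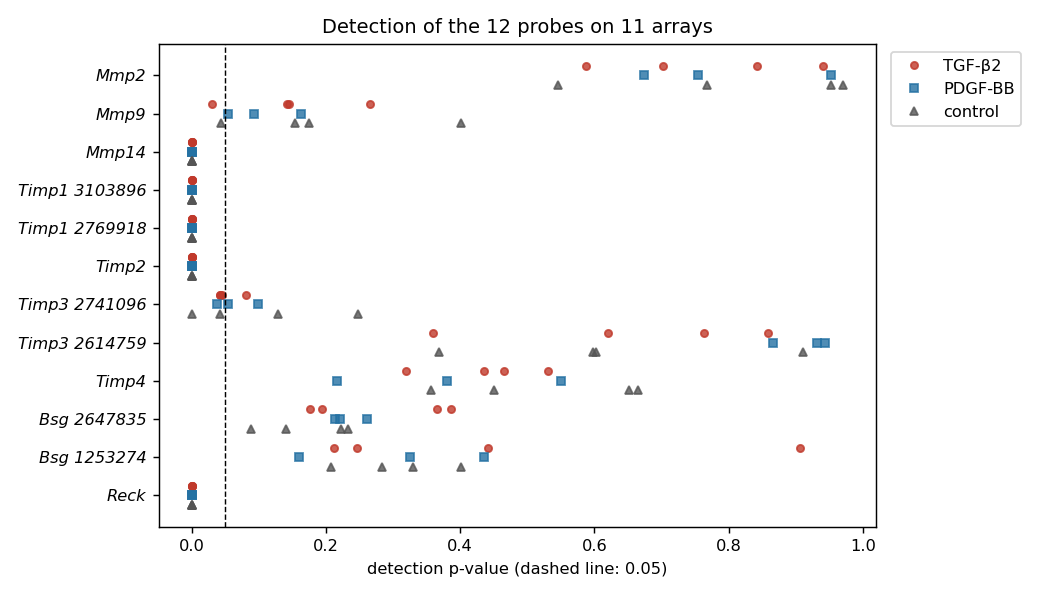
Detection p-values of the 12 probes on the 11 arrays, with a row per probe, a point per array, red circles for TGF-β2, blue squares for PDGF-BB and grey triangles for control. Mmp14, Timp1, Timp2 and Reck lie at 0 on every array, and Timp3 (ILMN_2741096) lies on both sides of the dashed line at 0.05. Mmp9 spans 0.0301 to 0.402 and is under the line on 2 arrays. Mmp2, Timp4, Bsg and the other Timp3 probe (ILMN_2614759) lie above the line on every array.

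Mmp14 encodes the membrane-type enzyme and was the only metalloproteinase among the members with a clear signal. Its normalized signal intensity was 1260, 1329, 1112 and 1374 on TGF-β2 arrays 1 to 4. It was 776.9, 933.3 and 811.7 on PDGF-BB arrays 1 to 3. It was 1168, 1015, 875.6 and 867.3 on control arrays 1 to 4. Every TGF-β2 array lay above every PDGF-BB array, the pattern on which Mmp14 was picked and one that 3.41% of all tested probes had. In contrast, TGF-β2 array 3 lay below control array 1, and PDGF-BB array 2 lay above control arrays 3 and 4. The group means were 1269 ± 114 (SD, n = 4) with TGF-β2, 841 ± 82.1 (SD, n = 3) with PDGF-BB and 981 ± 141 (SD, n = 4) in control cells. The order of the groups was thus TGF-β2, control and PDGF-BB, with neither neighbouring pair free of overlap. The standard error over the beads of the Mmp14 probe was 3.06% to 5.58% of its signal before normalization, from 25 to 43 beads per array.

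**Figure D2:**
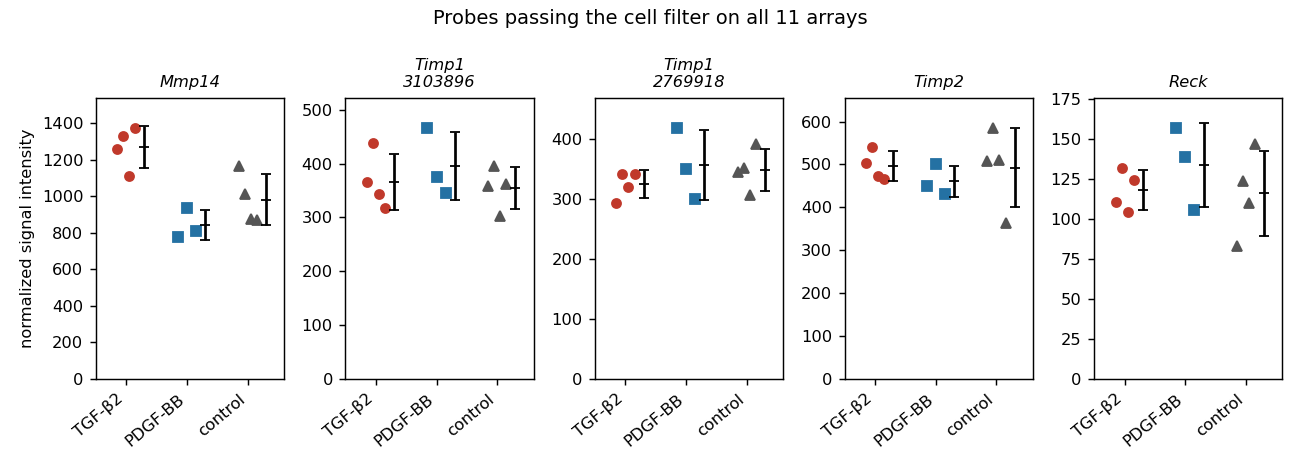
Normalized signal intensity (linear scale from 0, by the authors' normalization) of the 5 probes that passed on all 11 arrays, with a panel per probe, a point per array, and the mean with SD beside each group. For Mmp14 the 4 TGF-β2 arrays lie between 1112 and 1374 and the 3 PDGF-BB arrays between 776.9 and 933.3, while in the other panels the groups overlap.

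For the comparisons, log2 signals were computed again from the non-normalized values (see the difference plot for all 6 probes that could be tested), and a fold change here is a difference of these log2 signals. Against control cells, Mmp14 with TGF-β2 had a log2 fold change of 0.37 ± 0.14 (SE), a 1.29-fold difference with a 95% interval of 1.04 to 1.60, and it did not pass the test (adjusted p = 1.0, limma). Its unadjusted p in limma was 0.0225, in a comparison that shares the TGF-β2 arrays with the contrast on which Mmp14 was picked. Against control cells, Mmp14 with PDGF-BB had a log2 fold change of -0.22 ± 0.15 (SE, 95% interval -0.56 to 0.11, adjusted p = 1.0, limma). Between the treated groups, TGF-β2 minus PDGF-BB, the difference was 0.59 on the log2 scale (95% interval 0.26 to 0.92), and 353 of the 12894 tested probes had a larger positive one. Mmp14 was picked on this contrast. Neither the interval nor the rank takes account of that choice, so both are a description and nothing is read from them. All 3 comparisons share arrays, so they are not independent of each other.

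The Mmp14 values were also compared within blocks of adjacent arrays on a chip, in which the TGF-β2 array lay between the control array and, in 3 blocks, the PDGF-BB array. TGF-β2 was higher than the control array of its block in 4 of 4 pairs, by 0.09, 0.39, 0.34 and 0.65 on the log2 scale for replicates 1 to 4. These pairs hold the TGF-β2 arrays on which Mmp14 was picked, and the share of all probes with such pairs was not computed. The order of the groups was the same in every block, so treatment and array position within a block cannot be told apart. TGF-β2 minus PDGF-BB within a block was 0.69, 0.25 and 0.75 for PDGF-BB arrays 1 to 3, with signs fixed by the lack of overlap on which Mmp14 was picked. PDGF-BB was higher than the control array of its block in 1 of 3 pairs, with differences of -0.60, 0.08 and -0.10. On chip 1 alone the log2 fold change of TGF-β2 against control was 0.24, and on chip 2 alone it was 0.49. PDGF-BB against control had -0.49 on chip 1, where PDGF-BB had 1 array, and -0.01 on chip 2. TGF-β2 minus PDGF-BB was 0.73 on chip 1 and 0.50 on chip 2. With each array left out in turn, TGF-β2 against control was 0.31 to 0.46, PDGF-BB against control -0.30 to -0.13 and TGF-β2 minus PDGF-BB 0.53 to 0.67.

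**Figure D3:**
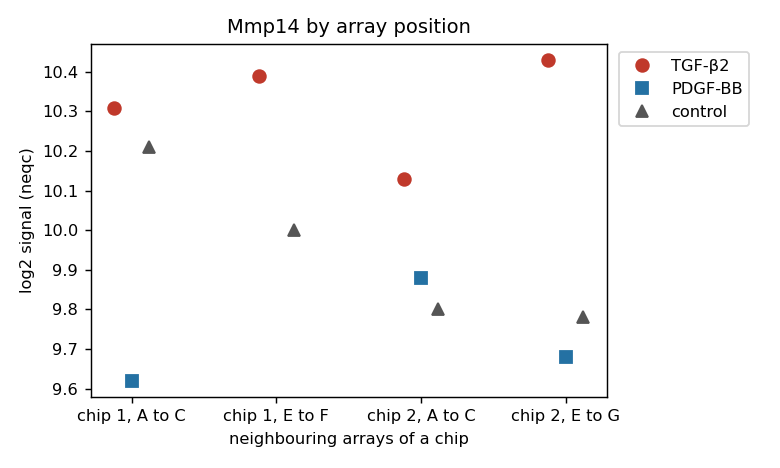
Mmp14 on the log2 scale (background-corrected and quantile-normalized signal) for each array, with the adjacent arrays of a block drawn together (the vertical axis does not start at 0). TGF-β2 lies 0.09 to 0.65 above control in all 4 blocks, while PDGF-BB is below control in 2 of the 3 blocks that hold it.

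Mmp14 lies on chromosome 14 at 54431598 to 54442456 (GRCm38.p6), Timp1 on chromosome X at 20870166 to 20874737 and Timp2 on chromosome 11 at 118301061 to 118355411. The 250 bases before the annotated start of these genes, from RefSeq's GRCm38.p6 promoters, are shown for Mmp14, the member on which the results turn, and for the soluble inhibitors measured on every array. A promoter window was matched for 7 of the 10 members. The windows were searched on both strands for the letters TGANTCA (AP-1), GGGCGG (GC box, bound by SP1), GCGGGGGCG (EGR1), TATAAA (the box bound by TBP) and GTCTAGAC (a SMAD palindrome), and matches are in capitals, with CCGCCC being GGGCGG on the other strand. Each sequence runs 5′ to 3′ on the strand of its gene and ends at the base before the start.
Mmp14, chr14:54431348-54431597, plus strand: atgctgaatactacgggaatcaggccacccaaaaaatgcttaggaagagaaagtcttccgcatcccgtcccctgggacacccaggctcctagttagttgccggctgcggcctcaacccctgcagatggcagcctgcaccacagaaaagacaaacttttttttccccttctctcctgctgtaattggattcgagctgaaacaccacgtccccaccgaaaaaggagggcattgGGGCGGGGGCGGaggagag
Timp1, chrX:20869916-20870165, plus strand: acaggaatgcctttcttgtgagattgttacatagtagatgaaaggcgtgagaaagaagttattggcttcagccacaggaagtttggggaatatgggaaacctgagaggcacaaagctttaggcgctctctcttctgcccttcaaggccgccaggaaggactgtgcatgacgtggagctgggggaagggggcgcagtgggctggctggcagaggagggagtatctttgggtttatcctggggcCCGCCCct
Timp2, chr11:118355412-118355661, minus strand: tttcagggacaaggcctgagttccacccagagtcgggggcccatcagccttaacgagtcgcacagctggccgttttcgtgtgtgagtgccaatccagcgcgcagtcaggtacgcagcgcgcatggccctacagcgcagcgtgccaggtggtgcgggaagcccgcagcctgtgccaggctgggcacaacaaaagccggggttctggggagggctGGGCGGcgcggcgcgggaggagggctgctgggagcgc

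The Mmp14 window ended in a G-rich stretch with 2 GC boxes, which began 19 and 13 bases before the start, and an EGR1 match that began 17 bases before the start and overlapped both. The Timp1 window held 1 GC box 8 bases before the start, and the Timp2 window 1 GC box 37 bases before it. Of the 32851 windows of this length in the table, 32.7% held the GC box letters and 2.57% the EGR1 letters. The letters of AP-1, the TBP box and the SMAD palindrome were found in 6.75%, 12.4% and 0.167% of all windows and in none of the 3 shown. The G and C content was 55.2% for Mmp14, 54.4% for Timp1 and 68.0% for Timp2, against a median of 52.4% over all windows. A match of letters is a description of the window and was not tested as a binding site.

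Timp1 encodes a secreted inhibitor that blocks MMP9 well and MMP14 poorly. It was measured by 2 probes. At ILMN_3103896 the normalized signal was 366.2, 437.5, 342.8 and 317.7 on TGF-β2 arrays 1 to 4, 466.2, 375.2 and 345.2 on PDGF-BB arrays 1 to 3, and 358.2, 395.9, 302.1 and 361.3 on control arrays 1 to 4. At ILMN_2769918 the means were 325 ± 23.3 (SD, n = 4) with TGF-β2, 357 ± 59.2 (SD, n = 3) with PDGF-BB and 349 ± 35.0 (SD, n = 4) in control cells. The groups overlapped at both probes, and PDGF-BB array 1 was the highest of the 11 arrays at both. With TGF-β2 against control, the log2 fold changes of the 2 probes were 0.04 (95% interval -0.28 to 0.37) and -0.10 (95% interval -0.40 to 0.20), of opposite sign. With PDGF-BB against control they were 0.15 (95% interval -0.20 to 0.50) and 0.02 (95% interval -0.30 to 0.35), and the value of ILMN_2769918 was -0.09 without PDGF-BB array 1. Neither probe passed in either comparison (adjusted p = 1.0 for each, limma).

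Timp2 encodes the inhibitor that also takes part in the activation of proMMP2 by MMP14. Its normalized signal was 504.4, 541.9, 472.4 and 465.7 on TGF-β2 arrays 1 to 4, 449.8, 500.9 and 431.8 on PDGF-BB arrays 1 to 3, and 508.5, 585.1, 510.1 and 364.2 on control arrays 1 to 4. Control cells thus held both the highest and the lowest of the 11 values. The log2 fold change against control was 0.03 with TGF-β2 (95% interval -0.30 to 0.36) and -0.07 with PDGF-BB (95% interval -0.43 to 0.28), and neither passed (adjusted p = 1.0 for both, limma). Without control array 4, the lowest, both lay below 0, at -0.10 with TGF-β2 and -0.21 with PDGF-BB.

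Reck encodes a membrane-anchored inhibitor of MMP14, MMP2 and MMP9. Its normalized signal was 110.4, 131.7, 104.4 and 124.2 on TGF-β2 arrays 1 to 4, 156.7, 138.7 and 105.3 on PDGF-BB arrays 1 to 3, and 83.2, 123.7, 110.1 and 146.6 on control arrays 1 to 4. The TGF-β2 arrays were the closest together, with an SD of 12.5 against 26.0 for PDGF-BB and 26.5 for control, and they lay within the range of the control arrays. The log2 fold change against control was 0.03 with TGF-β2 (95% interval -0.34 to 0.40) and 0.19 with PDGF-BB (95% interval -0.22 to 0.59), and neither passed (adjusted p = 1.0 for both, limma). The PDGF-BB difference was 0.55 on chip 1 alone and -0.07 on chip 2 alone.

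Timp3 encodes an inhibitor that binds to the matrix and also blocks ADAM proteases, and Timp4 one known for its expression in the heart. At ILMN_2741096, the only one of these probes that could be tested, Timp3 had a signal of 32.9, 42.8, 21.8 and 36.1 on TGF-β2 arrays 1 to 4, 45.2, 28.3 and 22.6 on PDGF-BB arrays 1 to 3, and 30.3, 10.4, 18.3 and 60.6 on control arrays 1 to 4. It was detected on 3 of 4 TGF-β2 arrays, 1 of 3 PDGF-BB arrays and 2 of 4 control arrays. These values straddle the signal minimum of 30, and the log2 fold changes of 0.11 with TGF-β2 (95% interval -0.37 to 0.58) and 0.07 with PDGF-BB (95% interval -0.44 to 0.58) did not pass (adjusted p = 1.0 for both, limma). The other Timp3 probe ILMN_2614759 had a detection p-value of 0.360 or more on every array. The Timp4 probe had 0.216 or more, with signals of -6.47 to 11.7.

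Timp1, Timp3 and Timp4 lie within the synapsin genes Syn1, Syn3 and Syn2, on the opposite strand where both strands are given (Timp1 plus within Syn1 minus, Timp4 minus within Syn2 plus). Synapsins coat synaptic vesicles in neurons. The Syn2 probe was detected on all 11 arrays, with a signal of 3821 ± 208 (SD, n = 4) with TGF-β2, 2573 ± 716 (SD, n = 3) with PDGF-BB and 3484 ± 792 (SD, n = 4) in control cells, while the Timp4 probe within that gene was detected on 0. The log2 fold change of Syn2 with PDGF-BB against control was -0.44 (95% interval -0.93 to 0.05, adjusted p = 1.0, limma). The Syn1 probe was detected on 5 arrays and the Syn3 probe on 0.

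The gelatinases were at or below the detection limit. The Mmp2 probe had signals of -21.9 to -2.98 and detection p-values of 0.546 to 0.971 over the 11 arrays. The Mmp9 signal was 17.0, 10.2, 35.2 and 17.4 on TGF-β2 arrays 1 to 4, 17.6, 28.2 and 23.7 on PDGF-BB arrays 1 to 3, and 29.7, 18.4, 1.89 and 13.3 on control arrays 1 to 4. The Mmp9 probe was detected on 2 arrays, fewer than the 3 required for a test, so no fold change is given. Bsg encodes basigin (CD147), which induces metalloproteinases in neighbouring cells and carries lactate transporters to the plasma membrane. Its 2 probes, ILMN_2647835 and ILMN_1253274, had detection p-values of 0.0890 to 0.387 and of 0.160 to 0.906, and signals of up to 22.7 and 17.6. An undetected probe does not show that a transcript was missing, since a probe can fail to match the form that cells make.

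Over all comparisons, 0 of the 6 tested member probes were called at an adjusted p under 0.05 with TGF-β2 or with PDGF-BB against control (limma), where 0 of 12894 tested probes were called in either comparison, a background of 0.0%. At an unadjusted p under 0.05 (limma), 1 of 6 (Mmp14) was found with TGF-β2, against 2.02% of all tested probes, and 0 of 6 with PDGF-BB, against 3.2%. Nothing is read from the TGF-β2 count, since that comparison shares the TGF-β2 arrays on which Mmp14 was picked. Groups did not overlap in 0 of 6 probes against control, with TGF-β2 (1.38% of all tested probes) or with PDGF-BB (3.65%). Between the treated groups 1 of 6, Mmp14, did not overlap, where 3.41% of all probes were higher with TGF-β2 without overlap, and nothing is read from this count since Mmp14 was picked on it. The median log2 fold change of the 6 probes was 0.04 with TGF-β2 and 0.05 with PDGF-BB against control, where the medians of all tested probes lay at 0.00 and 0.01. For TGF-β2 minus PDGF-BB the Timp1, Timp2, Timp3 and Reck probes had differences of -0.16 to 0.11.

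**Figure D4:**
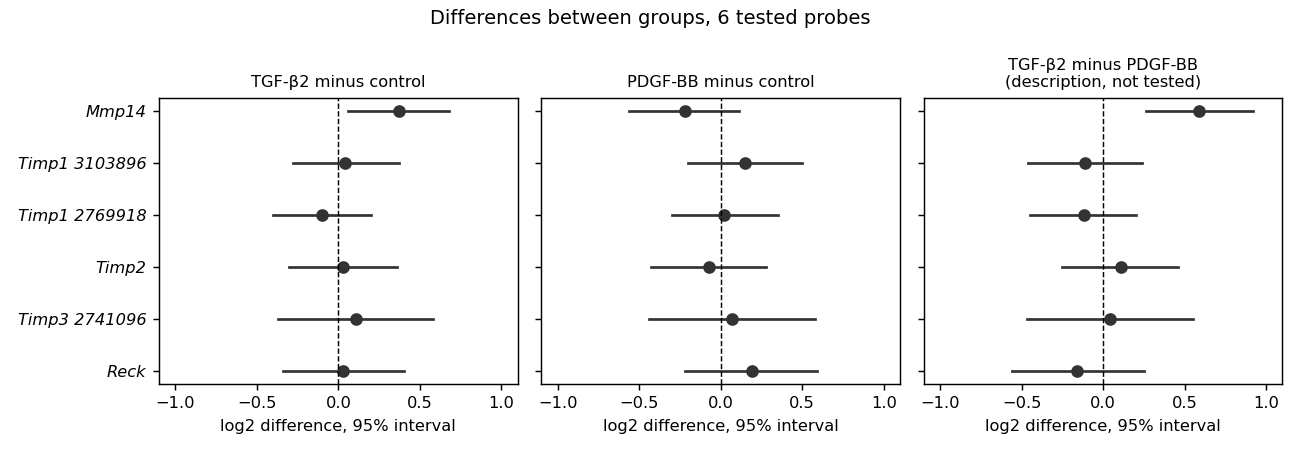
Log2 differences between groups with 95% intervals (limma) for the 6 tested probes, in panels for TGF-β2 minus control, PDGF-BB minus control and TGF-β2 minus PDGF-BB. Mmp14 has 0.37 for TGF-β2 minus control (0.06 to 0.68, adjusted p = 1.0) and -0.22 for PDGF-BB minus control, the other 5 probes lie between -0.10 and 0.19 in these panels, and the last panel describes the contrast on which Mmp14 was picked.

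Since the enzyme and its inhibitors were read on the same array, the log2 signal of Mmp14 minus that of each inhibitor was also formed, a measure chosen after the values were seen and given with no test. Its absolute size depends on the probes, so only differences between groups can be read. Each of the 3 measures contains Mmp14, picked for its higher level in TGF-β2-treated cells, and the inhibitors differed little between these groups, so the gap between the treated groups repeats the values that chose Mmp14 and is no further evidence of it. Mmp14 minus Timp2 was 1.29, 1.28, 1.21 and 1.53 on TGF-β2 arrays 1 to 4, 0.77, 0.88 and 0.89 on PDGF-BB arrays 1 to 3, and 1.19, 0.78, 0.77 and 1.22 on control arrays 1 to 4. The TGF-β2 and control ranges met at control array 4. Mmp14 minus Timp1, at ILMN_3103896, averaged 1.76 ± 0.22 (SD, n = 4) with TGF-β2, 1.06 ± 0.31 (SD, n = 3) with PDGF-BB and 1.44 ± 0.19 (SD, n = 4) in control cells. Mmp14 minus Reck was within 3.21 to 3.35 on the TGF-β2 arrays, against 2.20 to 2.79 with PDGF-BB and 2.45 to 3.59 in control cells. The TGF-β2 and control ranges overlapped for Timp1 and Reck as well.

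**Figure D5:**
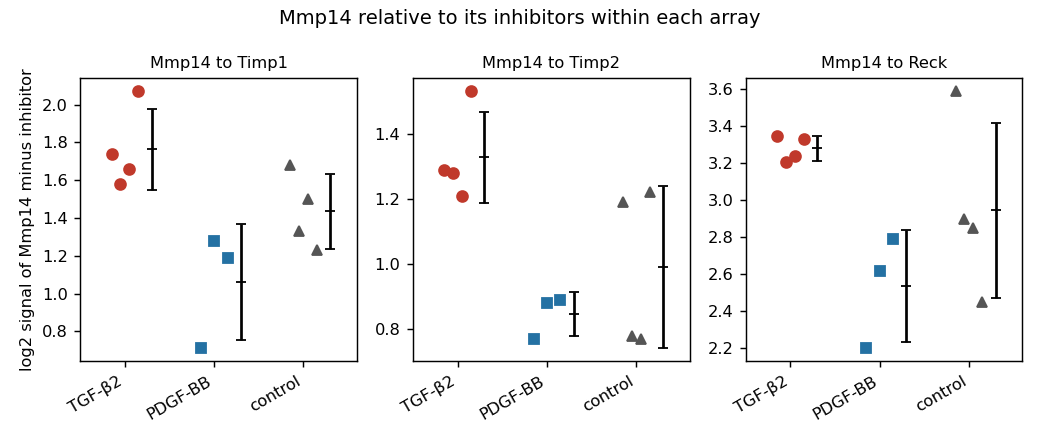
Log2 signal of Mmp14 minus that of Timp1 (ILMN_3103896), Timp2 and Reck within each array, with a panel per inhibitor, a point per array and the mean with SD beside each group (axes do not start at 0). Mmp14 enters all 3 panels, so they are not separate evidence, and TGF-β2 overlaps control in each, with Timp2 at 1.21 to 1.53 with TGF-β2, 0.77 to 0.89 with PDGF-BB and 0.77 to 1.22 in control cells.

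The probes whose pattern over the 11 arrays was closest to that of Mmp14 were those of Snx30 (a sorting nexin gene), Zfp553 (a zinc finger gene) and Pgm5 (a phosphoglucomutase-like protein of adherens junctions in muscle). Their root-mean-square differences from Mmp14, in log2 signals centred on each probe's mean, were 0.127, 0.136 and 0.166, where the median of the 4967 probes with at least the spread of Mmp14 was 0.457. Probes of less spread were left out, so this median does not describe all tested probes. The nearest of them, Snx30, had a log2 signal of 8.43 ± 0.21 (SD, n = 4) with TGF-β2, 7.94 ± 0.28 (SD, n = 3) with PDGF-BB and 8.10 ± 0.26 (SD, n = 4) in control cells. All 4 probes share the same arrays and chips, and these 3 were the nearest of many.

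Among 92 genes in 6 lists of related proteins, 80 had a probe, 19 were detected on all 11 arrays and 38 were tested. With TGF-β2 or with PDGF-BB against control, 0 of the 38 were called (limma). On the whole array, 0 of 12894 tested probes were called in either comparison, so this count is not particular to the lists. Of 17 other metalloproteinase genes with a probe, 8 were detected on 0 arrays, among them Mmp3, Mmp7 and Mmp12, and only Mmp11, which encodes stromelysin 3, on all 11, at 111 ± 33.3 (SD, n = 4) with TGF-β2, 99.1 ± 19.4 (SD, n = 3) with PDGF-BB and 115 ± 14.7 (SD, n = 4) in control cells. Of 6 tested genes of this list, 3 lay above 0 with TGF-β2 and 4 with PDGF-BB against control. Over all tested probes, 49.2% lay above 0 with TGF-β2 and 52.2% with PDGF-BB, and the counts of the lists below have the same background. The collagenase gene Mmp13 was detected on 9 arrays, 4 of TGF-β2, 3 of PDGF-BB and 2 of control, with mean signals of 58.1, 63.6 and 41.8. Its log2 fold changes were 0.32 with TGF-β2 (95% interval -0.21 to 0.85) and 0.43 with PDGF-BB (95% interval -0.15 to 1.0), and neither passed (adjusted p = 1.0 for both, limma). Its values were known when it was picked for naming here.

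The ADAM and ADAMTS proteases are related metalloproteinases that shed membrane proteins or cut proteoglycans. Of 25 with a probe, 6 were detected on all arrays and 12 were tested, of which 5 lay above 0 with TGF-β2 (median -0.02) and 7 with PDGF-BB (median 0.02) against control. Adam17, which encodes the protease that releases TNF and is blocked by TIMP3, had a signal of 517 ± 151 (SD, n = 4) with TGF-β2, 522 ± 117 (SD, n = 3) with PDGF-BB and 511 ± 67.3 (SD, n = 4) in control cells. Adam9, Adam15, Adam19 and Adamts15 were also detected on every array, with log2 fold changes of -0.12 to 0.12 with TGF-β2 and -0.20 to 0.07 with PDGF-BB.

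Of the proprotein convertases and the plasminogen system, which activate proenzymes, 12 genes had a probe and 5 were tested. Furin, whose product cuts the propeptide of MMP14, had a signal of 4170 ± 849 (SD, n = 4) with TGF-β2, 3796 ± 163 (SD, n = 3) with PDGF-BB and 3853 ± 930 (SD, n = 4) in control cells. Its log2 fold changes against control were 0.13 (95% interval -0.30 to 0.55) with TGF-β2 and -0.01 (95% interval -0.46 to 0.45) with PDGF-BB. Pcsk7, Plgrkt and Anxa2 were detected on all arrays, whereas the probes of the plasminogen activator genes Plau and Plat and of Plg were detected on 0.

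Of 15 genes of clearance receptors, binding partners and other inhibitors with a probe, 9 were tested, and 5 lay above 0 with TGF-β2 (median 0.08) and 7 with PDGF-BB (median 0.18). Those of highest signal among the genes detected on every array were Cd63, Pcolce, Cav1, Thbs2 and Itgb1. Cd63 encodes a tetraspanin that binds TIMP1, and its signal was 4112 ± 864 (SD, n = 4) with TGF-β2, 4451 ± 764 (SD, n = 3) with PDGF-BB and 4256 ± 518 (SD, n = 4) in control cells. Thbs2, which encodes a matrix protein whose loss raises MMP2 levels in mice, had log2 fold changes of 0.27 with TGF-β2 and 0.18 with PDGF-BB (adjusted p = 1.0 for both, limma). Cd44, which encodes a hyaluronan receptor that docks MMP14, was the only gene of the 6 lists with an unadjusted p under 0.05, in both comparisons. That is 1 of 38 tested genes in each, against 2.02% of all tested probes with TGF-β2 and 3.2% with PDGF-BB. Its log2 fold change was 0.45 with TGF-β2 (95% interval 0.15 to 0.76) and 0.45 with PDGF-BB (95% interval 0.12 to 0.78), neither passed (adjusted p = 1.0 for both, limma), and both share the control arrays. Cd44 was detected on 2 of 4 TGF-β2 arrays, 2 of 3 PDGF-BB arrays and 0 of 4 control arrays, so it could be tested only through the treated groups. It too was named with its values known.

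Of 8 partners of basigin with a probe, 2 were detected on all arrays. Nptn, which encodes neuroplastin, a relative of basigin, had a signal of 2539 ± 564 (SD, n = 4) with TGF-β2, 2647 ± 578 (SD, n = 3) with PDGF-BB and 2986 ± 458 (SD, n = 4) in control cells, and Ppil2, which encodes a cyclophilin, had 166 ± 28.0 (SD, n = 4) with TGF-β2, 172 ± 27.2 (SD, n = 3) with PDGF-BB and 173 ± 62.0 (SD, n = 4) in control cells. The probe of Slc16a1, which encodes the lactate transporter MCT1 that basigin escorts, was detected on 0 arrays, and that of Slc16a3 on 4. Of the 4 tested genes of this list, 0 lay above 0 with TGF-β2 and 3 with PDGF-BB against control. Over all tested probes the shares above 0 were 49.2% and 52.2%. With TGF-β2, Ppil2 at -0.01 and Slc16a3 at -0.02 lay close to 0, so nothing is read from these counts. None of the 4 was called, where 0 of 12894 tested probes were called in either comparison.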

How the data were processed

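RNA of HL-1 cells was measured on Illumina MouseRef-8 beadchips, 1 array per culture flask. One table that the authors deposited holds the non-normalized signal intensity of every probe, with its detection p-value, bead count and bead standard error, and a second one holds normalized intensity values. Per the paper's methods, the second was normalized with the cubic spline algorithm of Beadstudio, while the processing notes name GenomeStudio. The deposited normalized intensities are linear, with array medians of 24.95 to 25.06, and rank probes within an array as the non-normalized ones do.

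Levels are these normalized intensities. Differences were computed from the non-normalized intensities in R 4.3.3 (limma 3.58.1). Background was estimated by neqc through detection p-values, 16 was added as an offset, and log2 was taken after quantile normalization. Probes detected (p under 0.05) on at least 3 of 11 arrays were fitted, 12894 in all, with 1 mean per group, no block, eBayes and Benjamini-Hochberg adjustment over all of them. Tested on simulated data, the fit estimated known changes closely and called most of the large ones, but it called none of the smallest, which exceeded the Mmp14 difference from control. Probe symbols came from the platform annotation, updated through Entrez identifiers. Named genes were all member probes, up to 5 genes per related list of highest signal among those detected on every array, and any gene called. The 3 probes most like Mmp14 among those with at least its spread were also named by rule. Further list genes, among them Mmp13, Cd44 and genes detected on few or no arrays, were named outside this rule. The members and lists were chosen with earlier results of these data known. Alternatives were other normalizations, offsets and filters, array weights, blocks by chip, array position and replicate number, single chips, and each array left out. Same-numbered TGF-β2 and control arrays had correlations of 0.191, 0.400, 0.504 and 0.371 in their deviations from the group means. These arrays also lay side by side on a chip, and differently numbered arrays were not compared. Whether the numbers pair the arrays was thus not tested. PDGF-BB arrays had correlations of -0.138, -0.442 and 0.203 with the same-numbered control arrays. Figures were drawn with matplotlib.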

Additional observations from a re-analysis of the deposited data

How the results depend on the processing

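Of the 6 tested member probes, 0 were called against control with TGF-β2 or PDGF-BB in every alternative run and with each array left out (0 to 0), the replicate block included (0 and 0, and 0 for the TGF-β2 and control arrays alone). The related lists also had 0 calls with the authors' normalized values, with the replicate block and with each array left out (0 to 0). Over all tested probes of the array, 0 were called in every alternative too, so these counts are not particular to the members or lists. The 5 probes passing the cell filter stayed 5 with each array left out (5 to 5) and numbered 4 with a signal minimum of 100 and 6 where 1 array of each group sufficed. Against control, Mmp14 kept its sign in all alternatives, at 0.24 to 0.49 for TGF-β2 (25 alternatives, adjusted p = 0.827 to 1.0, limma) and -0.49 to -0.01 for PDGF-BB. For TGF-β2 minus PDGF-BB the values were 0.50 to 0.73, the largest of them on chip 1 alone. Leaving out single arrays gave 0.53 to 0.67 for this contrast. Since the treated groups did not overlap, its positive sign was fixed in advance for single chips and left-out arrays. Mmp14 was picked on this contrast, so its sign in the alternatives is no further evidence. The comparisons with control reuse the treated arrays on which Mmp14 was picked, so the signs kept there are no further evidence either. For PDGF-BB against control the value was -0.49 on chip 1 alone, where PDGF-BB had 1 array, and -0.01 on chip 2 alone.

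Log2 fold changes near 0 changed sign, and the cause was not tested. With TGF-β2 against control these were Timp2 on chip 1 alone (-0.06) and, on chip 2 alone, Timp1 ILMN_3103896 (-0.004), Timp3 (-0.20) and Reck (-0.14). With PDGF-BB against control they were Timp1 ILMN_2769918 (-0.10) and Timp3 (-0.09) with array weights and, on chip 2 alone, Timp1 ILMN_2769918 (-0.09), Timp2 (0.10), Timp3 (-0.27) and Reck (-0.07). With each array left out, the values with TGF-β2 ranged from -0.10 to 0.14 for Reck, -0.04 to 0.11 for Timp1 ILMN_3103896, -0.10 to 0.12 for Timp2 and -0.04 to 0.32 for Timp3, and those with PDGF-BB from -0.09 to 0.14 for Timp1 ILMN_2769918, -0.21 to 0.01 for Timp2 and -0.08 to 0.28 for Timp3. Timp3 could not be tested when detection on all 11 arrays was required. The 1 PDGF-BB array of chip 1 was taken to vary as the others do. With 3 or 4 arrays per group, the median standard error over all tested probes was 0.18 on the log2 scale for TGF-β2 against control and 0.20 for PDGF-BB against control, and Timp3, with signals near 30, lay close to background.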
